A study of Mus musculus with 14 samples.

Results

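The proteasome subunit genes were taken as every gene symbol of the deposited table that names a core subunit (Psma, Psmb), a subunit or assembly chaperone of the regulatory particle (Psmc, Psmd), or an activator or inhibitor (Psme, Psmf). This gave 44 of 25965 genes. They comprised 8 core alpha genes, 7 core beta genes, 4 immune or thymus beta genes, 6 ATPase genes, 11 non-ATPase genes, 3 assembly chaperones and 5 activators or inhibitors. They lay on 16 chromosomes, and 1 of them, Psmd10, was on the X chromosome. RNA sequencing had been done on mice without Tsga8, an X-linked gene of spermatids. The knockout males (KO, genotype Tsga8-/Y) were set against control males (genotype Tsga8+/Y). Whole testis of adult mice gave 3 KO and 3 control libraries. Round spermatids of steps 4 to 8, cut out by laser capture microdissection, gave 2 KO and 2 control libraries. A second captured region, with round spermatids of steps 1 to 3 beside elongated spermatids of steps 9 to 16, also gave 2 KO and 2 control libraries. Each group had 2 or 3 replicate animals by the design text. No label ties a captured region to an animal, so the regions of a genotype may share animals, and a p between regions takes no account of that.

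The proteasome is the protease complex that degrades proteins tagged with ubiquitin. Its core particle is a barrel of stacked alpha and beta rings, in which 3 of the beta subunits (Psmb5, Psmb6 and Psmb7) carry the cutting sites. A regulatory particle with a ring of ATPases recognizes, unfolds and feeds the substrate, and other activators (PA28 and PA200) can cap the core in its place. In male germ cells the alpha subunit Psma7 is partly replaced by its paralog Psma8, and the activator PA200, encoded by Psme4, takes part in the loss of histones when spermatids condense their chromatin. In immune cells and under interferon the 3 cutting subunits are replaced by Psmb8, Psmb9 and Psmb10.

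The depth by which the RPKM had been scaled was worked out from the deposited values. It was 30388531 to 49147347 reads per library for whole testis and 23467235 to 72022392 for captured tissue. Tsga8 stood at 2.62, 2.12 and 3.20 RPKM in KO testes, against 106, 88.6 and 104 RPKM in control testes. It was 2.18 and 3.76 RPKM in KO tissue of steps 4 to 8, against 239 and 193 RPKM in controls, and 9.42 and 6.96 RPKM in KO tissue of steps 1 to 3 and 9 to 16, against 56.9 and 209 RPKM in controls. In captured tissue 2 libraries stood apart. The first KO library of steps 4 to 8 had the most genes with 0 reads, 8552. In the first control library of steps 1 to 3 and 9 to 16 the 12 spermatid markers summed to a level of 114461, against 11811 to 33951 in the other 7 captured libraries. In tissue of steps 4 to 8 the same 12 markers summed to 11811 and 12749 in KO libraries and to 21310 and 25256 in control libraries.

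A "level" below is the number of reads per kilobase of the gene's principal transcript per 1000000 reads, used to set genes side by side. RPKM, as the authors deposited it, is per kilobase of the whole gene with introns. Reads had been counted over introns and on both strands, and 19 of the 44 genes overlap another annotated gene. A level can thus hold reads of introns and of such neighbours. The whole gene span was 1.0 (Psmb11) to 57.5 (Psmd14) times as long as the principal transcript. Intron reads can thus raise the level of some genes more than others, and an order of genes by level is rough. Differences are on the log2(RPKM + 0.1) scale, with the standard error (SE) and the adjusted p of limma, and a gene was called at an adjusted p under 0.05.

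Most proteasome genes were well read in whole testis, at levels that differed widely between genes. Of the 44 genes, 35 had a level of at least 10 in all 6 whole testis libraries. Psmc3, an ATPase of the regulatory particle, had the highest level, 478 ± 31.4 in KO testes and 391 ± 6.87 in control testes (SD, n = 3 each). Psma6, an alpha subunit, came next with 388 ± 45.5 in KO testes and 325 ± 27.5 in control testes. The ATPase gene Psmc2 followed, with means of 238 in KO and 210 in control testes. The whole gene span was 32.9 times the transcript for Psma6, 10.4 times for Psmc2 and 7.56 times for Psmc3. The lowest levels were those of the immune and thymus subunits, with the chaperone Psmd5 next.

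**Figure D1:**
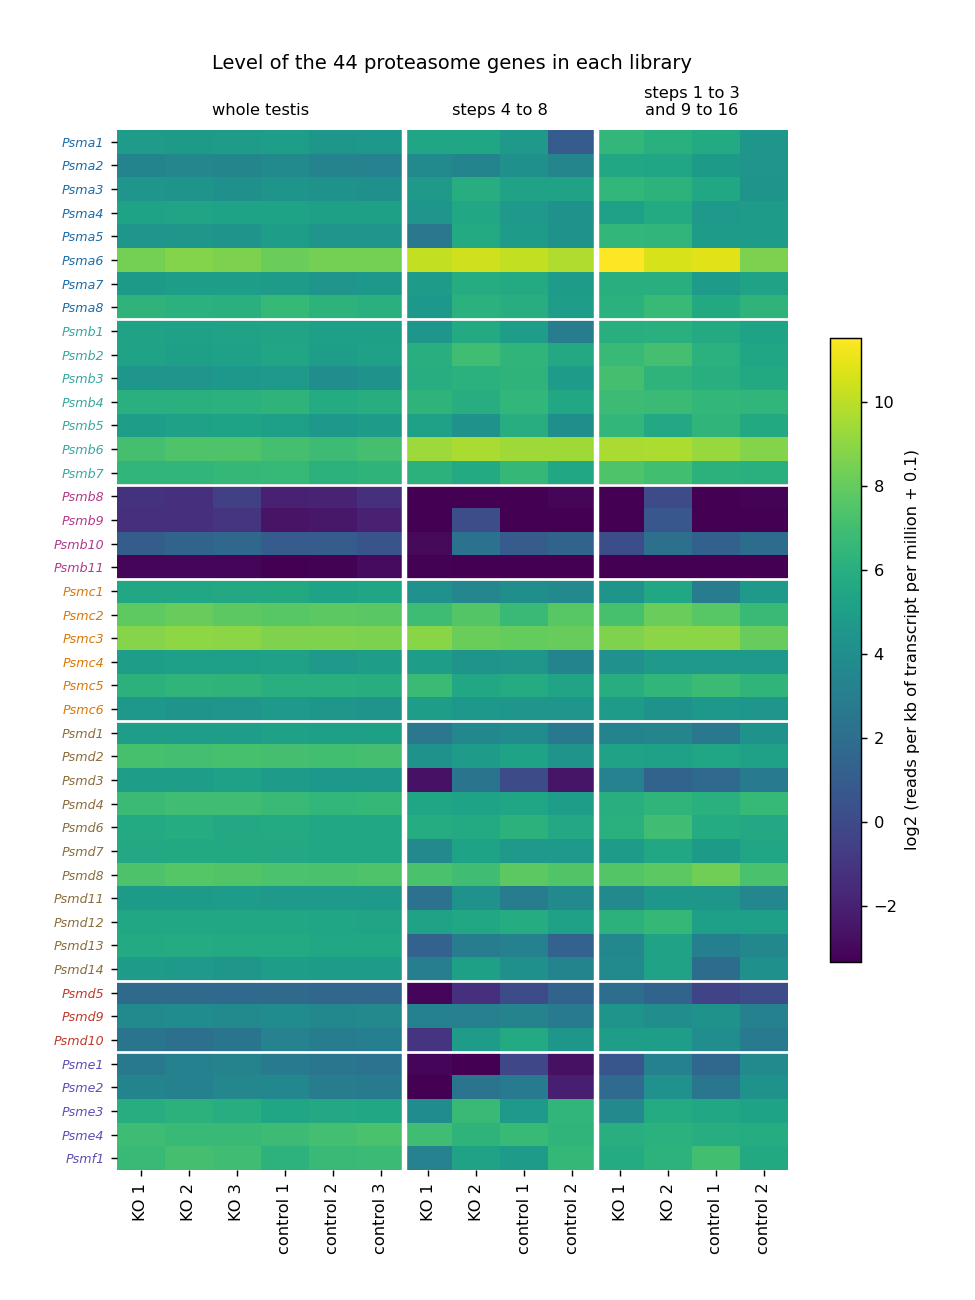
Level of each of the 44 genes (rows, grouped by role and coloured by role in their names) in each of the 14 libraries (columns, KO before control within each tissue), as log2 of reads per kilobase of transcript per 1000000 reads plus 0.1. Whole testis columns look alike, captured columns vary from library to library, and the immune and thymus genes have the lowest levels in whole testis.

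In whole testis 1 of 42 tested proteasome genes was called between KO and control. Psmd10, the chaperone on the X chromosome, was lower in KO testes, and no gene was called higher. Across all 15773 genes tested, 3.65% were called, 1.53% lower and 2.12% higher. The median difference of the 42 genes was 0.12, against 0.04 over all genes tested. A positive difference was found for 34 of the 42, against 56.2% of all genes. With libraries scaled to a common sum the median of the list was 0.013, against -0.059 over all genes, and with quantile normalization it was -0.0054, against -0.0031 over all genes. An unadjusted p under 0.05 was reached by 13 of the 42, 11 higher and 2 lower, against 26.3% of all genes, 15.6% higher and 10.8% lower. The KO and control ranges did not overlap for 13 of the 42, 11 higher and 2 lower, against 31.5% of all genes, 17.7% higher and 13.8% lower. The remaining genes, Psmb9 and Psmb11, fell below the filter on low values. Whether fewer cells or less RNA per cell lies behind a lower value cannot be told apart in such tissue.

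**Figure D2:**
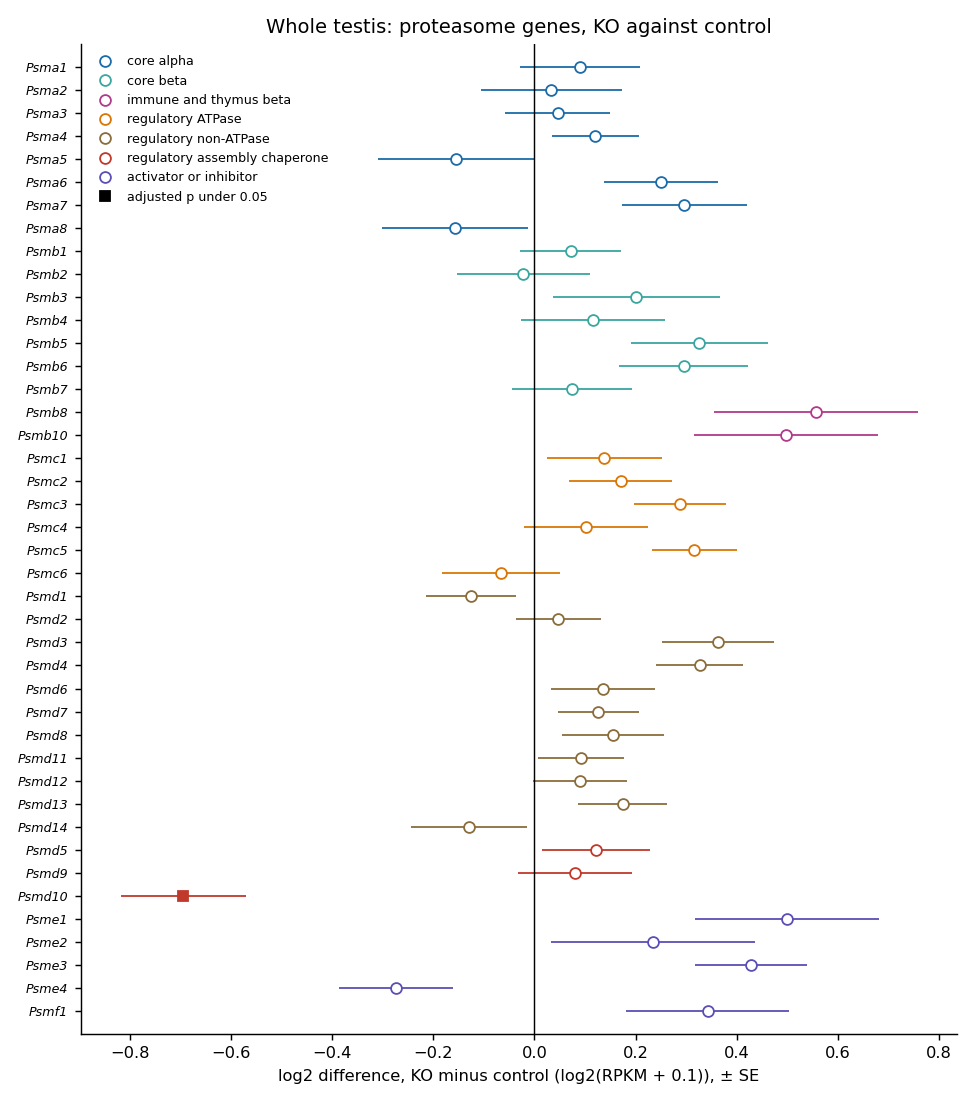
Log2 difference between KO and control whole testis for the 42 tested genes, with the SE as the bar, grouped and coloured by role. Psmd10, the filled square at -0.69, is the only gene with an adjusted p under 0.05, and most other points lie between -0.2 and 0.4.

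The alpha subunits form the outer rings of the core and guard its entrance. Psma8, the germ cell subunit, had levels of 78.9, 71.4 and 67.3 in KO testes, against 99.8, 78.0 and 68.4 in control testes. The groups overlapped, and its difference was -0.16 ± 0.14 (adjusted p = 0.508). Psma7, which Psma8 replaces, had levels of 26.7, 31.9 and 31.8 in KO testes, against 28.0, 21.4 and 24.1 in control testes, with a difference of 0.30 ± 0.12 (adjusted p = 0.180). Psma8 was thus read at 2.11 to 2.95 times the level of Psma7 in KO testes and at 2.84 to 3.64 times in control testes, ranges that overlap. In the 8 captured libraries the same ratio ran from 0.825 to 2.14. The whole gene span was 33.2 times the transcript for Psma8 and 6.63 times for Psma7, so intron reads can raise this ratio. By RPKM, per kilobase of the whole gene, Psma8 stood below Psma7 in every library. Which of the 2 had more transcripts is thus not settled. The other 6 alpha genes differed by -0.15 (Psma5) to 0.25 (Psma6), and none of the 8 alpha genes was called or had groups that did not overlap.

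Among the 7 constitutive beta genes Psmb6, with the caspase-like cutting site, had the highest level in every group. It stood at 139, 173 and 169 in KO testes and at 139, 114 and 138 in control testes, a difference of 0.29 ± 0.13 (adjusted p = 0.189). Psmb5, with the chymotrypsin-like site, had levels of 31.8, 35.9 and 38.3 in KO testes, against 33.1, 23.6 and 28.1 in control testes, with a difference of 0.33 ± 0.14 (adjusted p = 0.180). Psmb7, with the trypsin-like site, stood at 87.3, 87.7 and 92.9 in KO testes and at 99.3, 74.6 and 81.5 in control testes. For all 3 the first control library was the highest control and the groups overlapped. The lowest constitutive beta gene was Psmb3, with 22.6 ± 1.54 in KO testes and 19.8 ± 4.99 in control testes. None of the 7 beta genes was called.

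The region before the start of Psmb5 and Psmb6 is shown because both hold the core of the antioxidant response element, through which Nrf1 and Nrf2 (genes Nfe2l1 and Nfe2l2) are known to raise proteasome genes. The sequences are from RefSeq on build GRCm38.p6, 250 bases upstream of the RefSeq start, read 5′ to 3′ on the gene's strand, with the match in capitals. Psmb5 is on the minus strand at chr14:54617996-54618245, and Psmb6 on the plus strand at chr11:70525107-70525356.
Psmb5: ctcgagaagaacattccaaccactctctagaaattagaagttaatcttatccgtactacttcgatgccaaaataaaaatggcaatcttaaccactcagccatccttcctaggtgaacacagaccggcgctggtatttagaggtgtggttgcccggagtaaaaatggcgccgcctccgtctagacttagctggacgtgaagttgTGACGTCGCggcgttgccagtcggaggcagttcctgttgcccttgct
Psmb6: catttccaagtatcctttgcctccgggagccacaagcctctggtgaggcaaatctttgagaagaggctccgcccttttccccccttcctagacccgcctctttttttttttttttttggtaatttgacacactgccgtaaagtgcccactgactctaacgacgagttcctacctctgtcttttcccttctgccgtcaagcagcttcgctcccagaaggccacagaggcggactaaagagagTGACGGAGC
The motif was searched as TGACNNNGC on both strands, and no other motif searched overlapped it here. Of the 44 genes 37 had a RefSeq window, and 5 of the 37 held the motif (Psmb5, Psmb6, Psmc6, Psmd9 and Psmd12), a share of 13.5%, against 11.5% of all 27025 genes with a window. A match of letters is a description and shows no binding.

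By level, the immune subunits stood at a small fraction of the subunits they replace. The KO values of Psmb8, Psmb9 and Psmb10 lay above the control values in whole testis, while Psmb8 and Psmb10 did not pass the test. Psmb8 had 19, 22 and 34 reads in KO testes, against 8, 13 and 16 in control testes, which gave levels of 0.349, 0.303 and 0.604 and of 0.162, 0.162 and 0.296. The groups did not overlap, the difference was 0.56 ± 0.20 and the adjusted p was 0.138. Psmb10 stood at levels of 1.94, 2.60 and 3.00 in KO testes, against 1.88, 1.89 and 1.36 in control testes, a difference of 0.50 ± 0.18 (adjusted p = 0.141). Again the groups did not overlap, although the lowest KO library lay close to the control libraries. Psmb9 had 14, 18 and 17 reads in KO testes and 3, 6 and 7 reads in control testes, with no overlap. It was below the filter in the limma test, and without the filter its difference was 0.49 ± 0.07 (adjusted p = 0.0450). At such low values the 0.1 added before the log compresses the difference and the SE of Psmb9. With limma voom on the recovered reads, where lower counts enter, its difference was 1.58 and the adjusted p 0.0291, and 12.5% of all genes were then called. Psmb11, the thymus subunit, had at most 5 reads in any whole testis library.

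**Figure D3:**
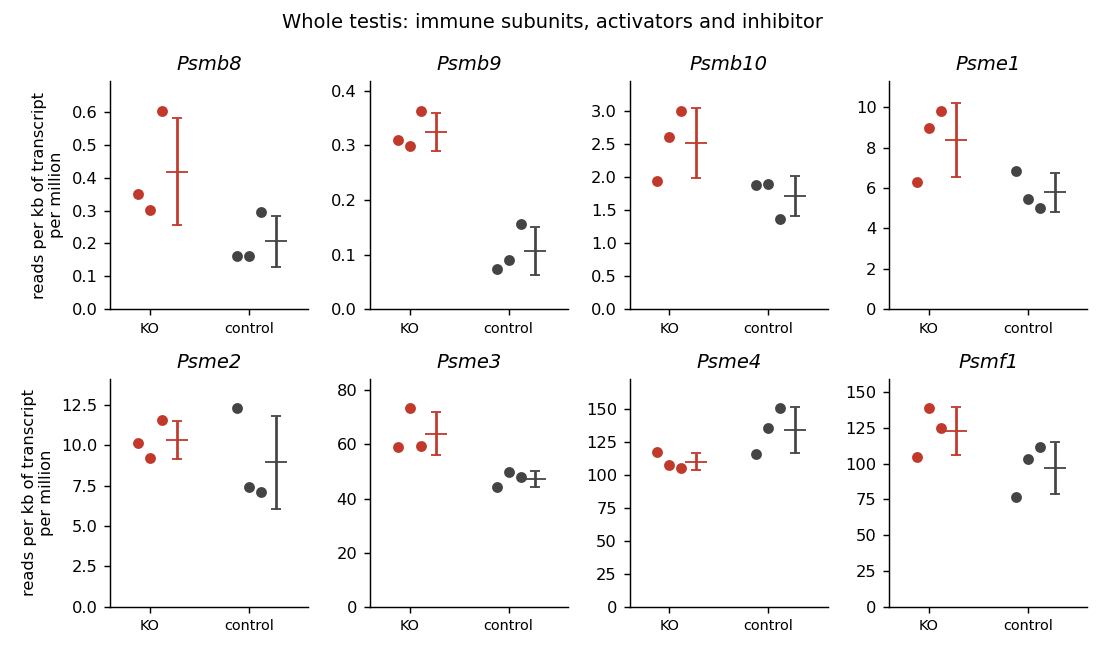
Levels (reads per kilobase of transcript per 1000000 reads) in whole testis for the 3 immune subunits, the 4 activator genes and the inhibitor gene, with KO libraries in red left of control libraries in grey. Points are libraries and the bar beside them is the mean with its SD (n = 3 each). Psmb8, Psmb9, Psmb10 and Psme3 have no overlap between the groups.

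Relative to the subunit each replaces, Psmb8 was at 0.842% to 1.58% of Psmb5 in KO testes and at 0.488% to 1.05% in control testes. Psmb9 was at 0.173% to 0.224% of Psmb6 in KO testes and at 0.0525% to 0.113% in control testes. Psmb10 was at 2.22% to 3.23% of Psmb7 in KO testes and at 1.67% to 2.54% in control testes. The whole gene span was 48.3 times the transcript for Psmb7 and 2.03 times for Psmb10, so intron reads of Psmb7 can lower this share. All 3 immune genes share bases with a gene on the other strand, so the reads of the partners cannot be told apart. Psmb9 shares 212 bases with Tap1, a peptide transporter gene, Psmb8 shares 2139 bases with the antisense gene Gm20496, and Psmb10 shares 2665 bases with the antisense gene Gm16156.

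Markers of interferon response and of other cells were read beside them. Of 13 interferon response genes, 8 were tested and 1, Tap1, was called higher, with 0.192, 0.144 and 0.221 RPKM in KO testes, against 0.0919, 0.0757 and 0.0686 RPKM in control testes (difference 0.67 ± 0.13, adjusted p = 0.0454). The 13 levels summed to 22.9 to 31.2 in KO testes and to 18.6 to 22.2 in control testes. None of the 13 had 0 reads. All 8 tested differences were positive, with a median of 0.36. An unadjusted p of limma under 0.05 was reached by 5 of the 8, all higher, against 15.6% of all genes. The groups did not overlap for 4 of the 8, all higher, against 17.7% of all genes. The 13 macrophage and lymphocyte markers of the table summed to 23.2 to 39.9 in KO testes and to 24.0 to 31.0 in control testes, with Cd8a at 0 reads in 2 KO libraries and 1 control library. The 16 Sertoli cell markers summed to 946 to 1254 in KO testes and to 682 to 963 in control testes, with none at 0. Of 15 Sertoli cell markers tested, 13 had positive differences with a median of 0.45, and 8 had an unadjusted p under 0.05, all higher in KO. The 10 Leydig cell markers summed to 203, 696 and 898 in KO testes and to 264, 379 and 394 in control testes, with positive differences for 9 of 9 tested. The 7 peritubular and vessel markers summed to 47.9 to 57.3 in KO testes and to 33.0 to 50.3 in control testes, with positive differences for 5 of 5 tested. Of the germ cells, 8 spermatogonia markers summed to 68.5 to 72.9 in KO testes and to 60.6 to 81.9 in control testes. The 10 spermatocyte markers summed to 3233 to 3545 in KO testes and to 3085 to 3198 in control testes. The 12 spermatid markers summed to 9793 to 13407 in KO testes and to 11588 to 18469 in control testes. Positive differences were found for 2 of 6 spermatogonia, 4 of 10 spermatocyte and 5 of 12 spermatid markers tested. The median differences of these 3 lists were -0.19, -0.02 and -0.03. Limma on RPKM called none of the tested markers of these germ cells, or of Sertoli, Leydig, peritubular and vessel, or macrophage and lymphocyte cells. Limma voom called 4 of 16 Sertoli cell markers and 2 of 10 interferon response genes higher, against 5.34% of all genes. Of 7 peritubular and vessel markers it called 1 higher and 1 lower. It called 1 of 8 spermatogonia, 1 of 10 spermatocyte and 2 of 12 spermatid markers lower, against 7.12% of all genes. The part of all these cell types in the values of the immune subunits was not tested.

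The ATPases Psmc1 to Psmc6 form the ring that unfolds substrates. Psmc3 had 58.5, 66.4 and 64.7 RPKM in KO testes, against 52.3, 52.1 and 50.7 RPKM in control testes, with no overlap and a difference of 0.29 ± 0.09 (adjusted p = 0.109). Psmc5 had levels of 73.4, 82.6 and 79.9 in KO testes, against 65.0, 63.4 and 60.5 in control testes, also without overlap (difference 0.32 ± 0.08, adjusted p = 0.0784). Psmc6, the ATPase with the lowest level, had 20.7 to 23.9 in KO testes and 20.1 to 25.8 in control testes. None of the 6 was called, and 5 of 6 differences were positive.

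Of the 11 non-ATPase genes, which bind ubiquitin, remove it or hold the regulatory particle together, 9 had positive differences and none was called. Psmd4, a ubiquitin receptor, had levels of 112, 124 and 124 in KO testes, against 101, 91.3 and 94.4 in control testes, a difference of 0.33 ± 0.09 (adjusted p = 0.0763). Psmd3, a scaffold subunit, had 4.99, 5.07 and 5.78 RPKM in KO testes, against 4.65, 3.76 and 3.86 RPKM in control testes, a difference of 0.36 ± 0.11 (adjusted p = 0.10). Neither pair of groups overlapped. Psmd8 had the highest level of the class, 179 ± 16.6 in KO testes and 161 ± 7.53 in control testes (SD, n = 3 each). Psmd14, which encodes the deubiquitinase of the particle, and Psmd1 had negative differences of -0.13 each.

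Limma voom on the recovered reads called 5 of 43 genes higher, Psmb9, Psmc3, Psmc5, Psmd4 and Psme3, and Psmd10 lower. In that fit 5.34% of all genes were called higher and 7.12% lower. Without both libraries numbered 1, 13 of the 42 were called, 11 higher and 2 lower, where 24.8% of all genes were called. Single libraries decided the count of limma on RPKM: it was 4 without the first KO library, where 10.6% of all genes were called, and 4 without the first control library, where 9.48% were. It was 0 without the second or the third library of either group, where 0.520% to 0.894% of all genes were called.

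Psmd10 encodes gankyrin, which binds the ATPase Psmc4 while the regulatory particle is assembled. It had 0.888, 0.758 and 0.916 RPKM in KO testes, against 1.61, 1.26 and 1.47 RPKM in control testes, from 246 to 281 and 404 to 513 reads. Every KO library lay below every control library. The mean was 0.854 ± 0.0841 RPKM in KO testes and 1.45 ± 0.179 RPKM in control testes (SD, n = 3 each), the difference was -0.69 ± 0.12 and the adjusted p was 0.0328. Without a filter on low values the adjusted p was 0.0638, and without the second or the third library of either group it was 0.0599 to 0.124, with differences of -0.62 to -0.79. The other chaperones showed no such difference. Psmd5 had levels of 3.38, 3.44 and 3.32 in KO testes, against 3.47, 2.91 and 2.87 in control testes, and Psmd9 had a mean of 13.9 in KO testes and 13.2 in control testes.

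The start of Psmd10 is shown as that of the only gene called. The stretch is chrX:140956729-140956961 on GRCm38.p6, read on the minus strand, the 233 bases of the RefSeq window that lie before the gene's annotated span. Capitals mark the CCAAT box, the motif bound by NF-Y, searched as CCAAT on both strands (ATTGG where it lies on the other).
Psmd10: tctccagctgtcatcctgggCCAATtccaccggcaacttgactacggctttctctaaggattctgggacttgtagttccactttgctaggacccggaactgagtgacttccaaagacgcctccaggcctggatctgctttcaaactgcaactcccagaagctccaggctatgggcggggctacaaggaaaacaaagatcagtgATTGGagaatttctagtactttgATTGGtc
The motif occurs 3 times here. Psmd10 was thus 1 of the 37 genes with a window that had 3 or more, a share no higher than the 3.23% of all genes. At least 1 CCAAT box was found for 14 of the 37 genes, 37.8%, against 37.5% of all genes. The core of the interferon-stimulated response element, searched on both strands, was found for 3 of the 37 (Psmb3, Psmd4 and Psmd9), 8.11%, against 3.46% of all genes, and for none of Psmb8, Psmb9 and Psmb10. No match overlapped another in the sequence above.

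Genes of the ubiquitin pathway were set beside the proteasome genes in whole testis. The list held 57 genes of ubiquitin, its enzymes, shuttles, proteasome partners and proteasome gene transcription. Of 56 tested in whole testis, 4 were called lower and none higher, against 1.53% of all genes lower and 2.12% higher. All 4 were on the X chromosome. Uba1, the main ubiquitin-activating enzyme, had 2.51, 2.73 and 2.89 RPKM in KO testes, against 7.24, 7.74 and 7.30 RPKM in control testes (difference -1.42 ± 0.09, adjusted p = 0.000613). Cul4b, a ubiquitin ligase scaffold, had 1.43, 1.39 and 1.45 RPKM in KO testes, against 2.65, 2.94 and 2.55 RPKM in control testes (difference -0.88 ± 0.09, adjusted p = 0.00574). Ube2a, a conjugating enzyme, had 0.784, 0.799 and 0.789 RPKM in KO testes, against 1.20, 1.23 and 1.21 RPKM in control testes (difference -0.56 ± 0.09, adjusted p = 0.0230). In none of these genes did the groups overlap.

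Usp26, a germ cell deubiquitinase, had 0.198, 0.106 and 0.150 RPKM in KO testes, against 0.333, 0.289 and 0.317 RPKM in control testes (difference -0.73 ± 0.15, adjusted p = 0.0475). The other X-linked genes of the list were Huwe1, a ubiquitin ligase gene with a difference of -0.83 ± 0.18 (adjusted p = 0.0540), and Ubqln2, a shuttle gene with a difference of -0.04 ± 0.13 (adjusted p = 0.853). None of the 50 tested genes off the X was called by limma on RPKM. Limma voom called 2 of 51 off the X higher and 3 lower, and 5 of the 6 on the X lower. In that fit 5.34% of all genes were called higher and 7.12% lower. Of all genes tested by limma on RPKM, 24.4% of the 513 on the X and 0.76% of the 15260 off the X were called lower. Psmd10 and the 4 enzymes thus shared their direction with many X-linked genes. That X-linked genes were lower was known from earlier results of these data, so the list is no independent support for it. The median difference was -0.78 for the 6 X-linked genes of the list and 0.07 for the other 50.

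**Figure D4:**
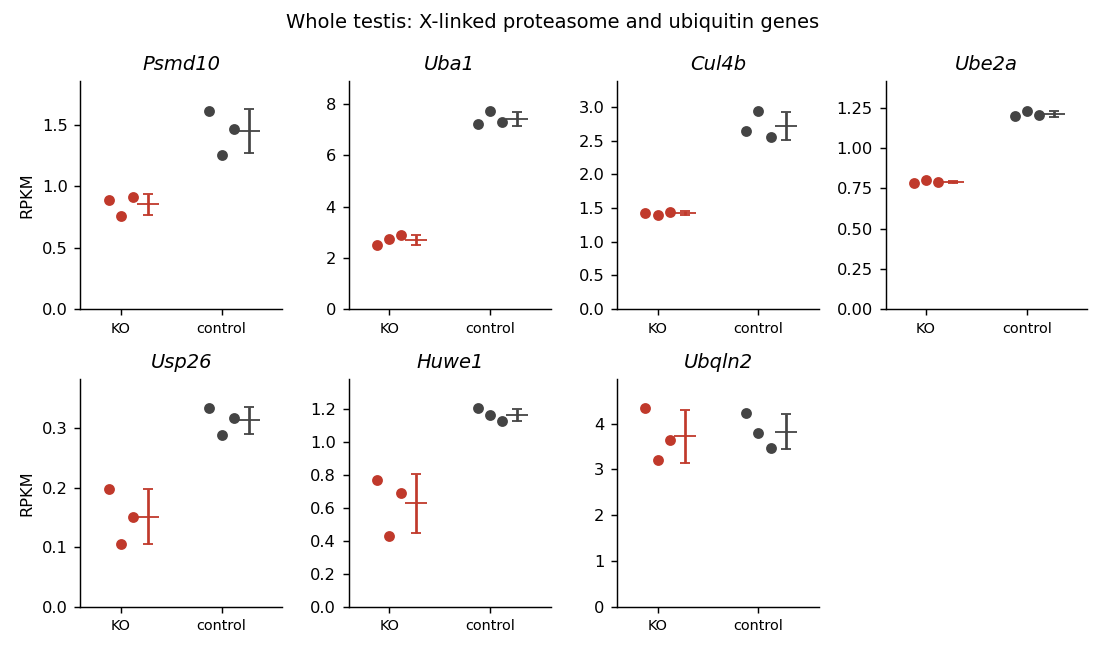
RPKM in whole testis for Psmd10 and the 6 X-linked genes of the ubiquitin pathway list, with KO libraries in red left of control libraries in grey; the bar beside the points is the mean with its SD (n = 3 each). Psmd10, Uba1, Cul4b, Ube2a, Usp26 and Huwe1 are lower in every KO library than in any control library, and Ubqln2 overlaps.

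The activators cap the core particle without ATP. Psme3, which encodes the nuclear activator PA28 gamma, had levels of 59.2, 73.3 and 59.5 in KO testes, against 44.1, 49.9 and 48.0 in control testes, with no overlap and a difference of 0.43 ± 0.11 (adjusted p = 0.0729). Psme4, which encodes PA200, had levels of 118, 108 and 105 in KO testes, against 116, 136 and 151 in control testes, and the groups overlapped (difference -0.27 ± 0.11, adjusted p = 0.175). Psmf1, an inhibitor of the core, had levels of 105, 138 and 125 in KO testes, against 76.9, 103 and 112 in control testes (difference 0.34 ± 0.16, adjusted p = 0.224). These 3 genes had higher levels than the interferon-inducible pair in all 6 libraries.

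Psme1 and Psme2, the interferon-inducible subunits of PA28, were the least read of the class. Psme1 had levels of 6.30, 8.98 and 9.82 in KO testes, against 6.87, 5.45 and 5.02 in control testes. The first KO library lay within the control range, and the difference of 0.50 ± 0.18 had an adjusted p of 0.142. Without the first KO library the difference was 0.68 and Psme1 was called. Psme2 had levels of 10.1, 9.24 and 11.6 in KO testes, against 12.3, 7.45 and 7.12 in control testes (difference 0.23 ± 0.20, adjusted p = 0.482).

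Captured tissue gave fewer well-read proteasome genes and more spread between libraries. A level of at least 10 in all 8 captured libraries was found for 25 of the 44 genes. The 42 genes tested there left out Psmb8 and Psmb11. Their median SD between replicates was 0.542 for KO and 0.512 for control tissue of steps 4 to 8, and 0.350 for KO and 0.394 for control tissue of steps 1 to 3 and 9 to 16, on the log2 scale. Over all genes tested it was 0.496 for KO and 0.452 for control tissue of steps 4 to 8, and 0.483 for KO and 0.663 for control tissue of the other region. In whole testis the 42 genes tested had a median SD of 0.0962 for KO and 0.161 for control, and all genes 0.136 for KO and 0.144 for control. Psma6, Psmb6 and Psmc3 had the highest levels of the 44 genes in all 4 captured groups. Psmb6 stood at 646 and 778 in KO tissue of steps 4 to 8, against 673 and 674 in controls, and at 793 and 822 in KO tissue of steps 1 to 3 and 9 to 16, against 587 and 429 in controls. Psmb8 had 0 reads in 5, Psmb9 in 6 and Psmb11 in 7 of the 8 libraries, while Psmb10 had reads in all 8. The second KO library of each region held all reads of Psmb9, 48 in steps 4 to 8 and 119 in steps 1 to 3 and 9 to 16. Kits differed between whole testis and captured tissue, so no gene was tested between them.

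In tissue of steps 4 to 8 no proteasome gene was called between KO and control, and no gene of the 16841 tested was called by limma (0%) or by limma voom. An unadjusted p under 0.05 was reached by 2 of 42 genes, Psma1 higher and Psmd5 lower, against 3.54% of all genes (1.57% higher, 1.97% lower). The groups did not overlap for 6 of 42, 3 higher and 3 lower, against 28.6% of all genes. Psma1, an alpha subunit, had levels of 42.6 and 42.8 in KO tissue, against 24.9 and 1.90 in controls, and its difference was 2.35 ± 0.95 (adjusted p = 1.00). The second control library was far below the others, and without it the difference was 0.76. Psmd5 had levels of 0.0139 and 0.301 in KO tissue, against 0.985 and 2.58 in controls, from 3 and 46 reads and 312 and 532 reads (difference -1.86 ± 0.74, adjusted p = 1.00). Psmd10 had the largest negative difference, -2.72 ± 1.35 (adjusted p = 1.00). Its levels were 0.384 and 29.6 in KO tissue, against 53.3 and 22.8 in controls, so the first KO library was far lower and the second lay within the control range.

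In tissue of steps 1 to 3 and 9 to 16 all 15 core genes (alpha and beta) had positive differences between KO and control tissue. A positive difference was found for 51.8% of all genes, and none of the 15 was called. Their median difference was 0.90, against 0.08 for the other 27 tested proteasome genes and 0.03 over all genes. The groups did not overlap for 6 of 8 alpha and 6 of 7 beta genes, all higher in KO, against 16.5% of all genes that did not overlap and were higher. Over all 42 tested genes, 17 did not overlap, all higher, and 1 had an unadjusted p under 0.05 (Psmd12, higher), against 5.5% of all genes (3.25% higher, 2.25% lower). No gene of the 16841 was called by limma (0%), and the adjusted p of the 15 core genes ran from 0.911 to 1.00. Their lowest unadjusted p of limma was 0.0517. The core genes were set apart from the other members after the values were seen. All 15 were read in the same libraries, so they are not independent of each other, and their shared direction was not tested.

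Psma5, an alpha subunit, showed the largest difference of the core. It had levels of 91.9 and 86.1 in KO tissue, against 27.6 and 27.6 in controls (difference 1.62 ± 0.86, adjusted p = 0.990). Psma7 had 62.3 and 62.3 in KO tissue, against 29.2 and 36.9 in controls, and Psmb7 had 172 and 131, against 75.1 and 68.4. The germ cell paralog Psma8 had 69.7 and 101 in KO tissue, against 51.5 and 79.0 in controls, and overlapped. Psmb5 also overlapped, with 88.9 and 49.4 in KO tissue, against 81.9 and 50.7 in controls.

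**Figure D5:**
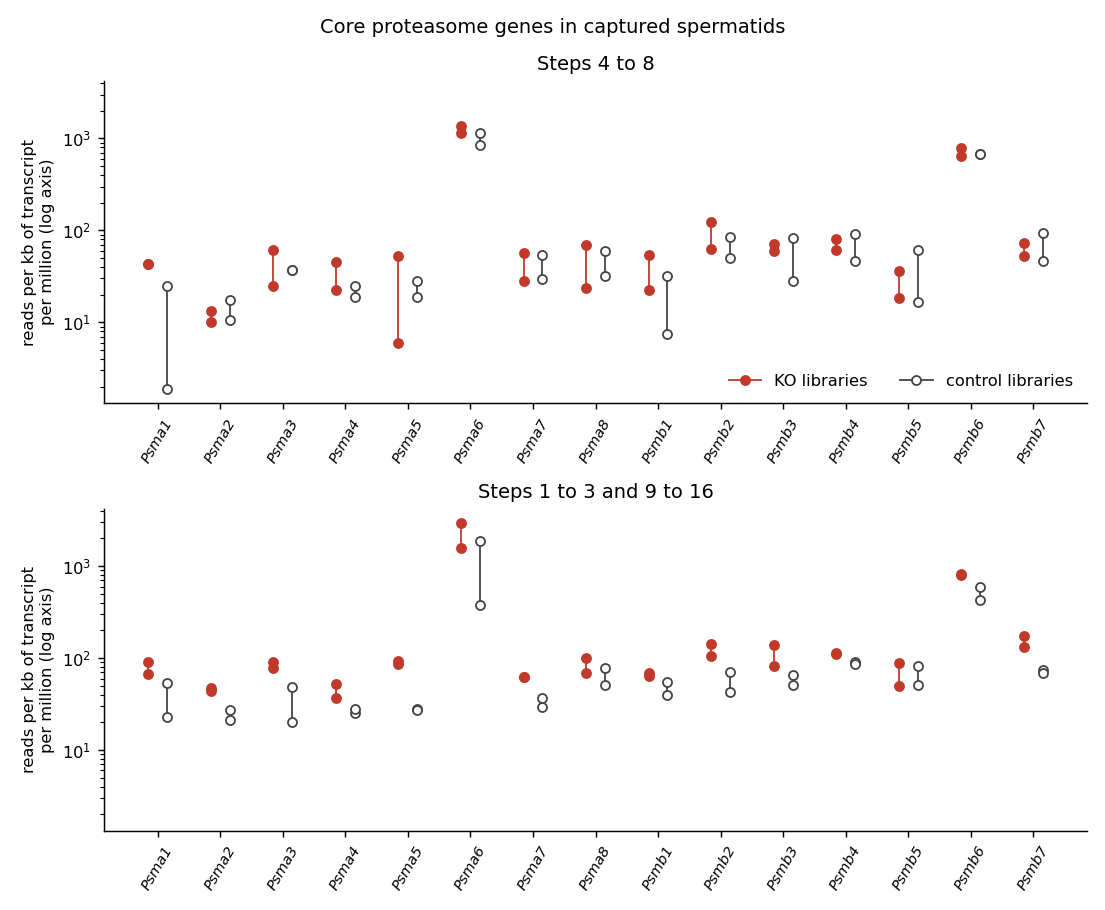
Levels of the 15 core genes (reads per kilobase of transcript per 1000000 reads, log axis) in captured tissue of steps 4 to 8 (top) and of steps 1 to 3 and 9 to 16 (bottom). Each point is a library, red for KO and open grey for control, and a line joins the 2 libraries of a group. In the lower panel 12 of the 15 genes show KO points above both control points, while in the upper panel 1 of the 15, Psma1, does.

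Some alternatives could not change the differences of the core genes in this region. These were a change of filter alone, the replicate block and leaving out a library of steps 4 to 8. Fitting only the groups compared, or without the intensity trend, could not change them either. Under the other alternatives the number of core genes with a positive difference was 14 or 15, with medians of 0.69 to 1.16. Without the first control library, whose spermatid markers stood apart, it was 15 with a median of 1.05, where the median over all genes was -0.19. Without the second control library it was 14 with a median of 0.69, where the median over all genes was 0.29. The median of the other members moved as well, over -0.01 to 0.45. Without the first KO library 20 of their 27 were positive, with a median of 0.45, against 0.84 for the core. With a common sum 21 of their 27 were positive, with a median of 0.33, against 1.16 for the core. In the same region the 12 spermatid markers summed to 33951 and 14165 in KO tissue and to 114461 and 25240 in control tissue. The 13 interferon response genes summed to 33.4 and 29.8 in KO tissue and to 4.16 and 19.9 in controls. Of these 13, 5 and 3 were at 0 reads in KO libraries and 8 and 3 in control libraries. Only 6 of the 13 were tested, with 3 positive and 3 negative differences. The groups did not overlap for 2 that were higher and 2 that were lower. Differences of the 12 spermatid markers were positive for 4 and negative for 8. The part of such differences in cell content between libraries was not tested.

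Outside the core the differences were smaller or mixed in sign, except for the chaperones, of which all 3 were positive. The median difference was 0.18 for the 6 ATPase genes, 0.08 for the 11 non-ATPase genes and -0.32 for the 5 activator and inhibitor genes. Among the chaperones Psmd10 had levels of 31.7 and 31.4 in KO tissue, against 15.6 and 6.64 in controls, higher in both KO libraries (difference 1.57 ± 1.35, adjusted p = 0.990). Psmd5 had levels of 3.99 and 2.67 in KO tissue, against 0.707 and 0.969 in controls (difference 1.56 ± 0.74, adjusted p = 0.955). Psme1 and Psme3 had the most negative differences, -0.75 ± 1.06 and -0.65 ± 1.03. For Psme3 the first KO library was low, with levels of 12.8 and 55.7 in KO tissue, against 46.3 and 38.4 in controls, and without it the difference was 0.40.

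The difference between the regions in the effect of the knockout was not shown for any proteasome gene. None of the 42 was called, no gene of 16841 was called by limma (0%), and 1 of 42 had an unadjusted p under 0.05, against 3.04% of all genes (1.78% in its direction). That gene was Psmd5, lower in KO tissue of steps 4 to 8 and higher in KO tissue of the other region, with a difference between the effects of 3.41 ± 1.04 (adjusted p = 1.00). For Psmd10 the difference between the effects was 4.29 ± 1.90 (adjusted p = 1.00). The difference between the effects was positive for 33 of the 42 genes, against 52.6% of all genes, with a median of 0.38, against 0.06 over all genes.

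Between the regions in control animals no proteasome gene was called, no gene of 16841 was called by limma (0%), and 2 of 42, Psme1 and Psmd4, had an unadjusted p under 0.05, against 7.55% of all genes. Psme1 had levels of 3.14 and 13.5 in control tissue of steps 1 to 3 and 9 to 16, against 0.799 and 0.0575 in steps 4 to 8, from 82 and 739 reads and 64 and 3 reads (difference 3.45 ± 1.06, adjusted p = 0.587). Psme2, its partner, had 5.45 and 19.1, against 7.06 and 0.133 (difference 2.44 ± 1.56, adjusted p = 0.773). Psmd3 had 3.27 and 7.05, against 0.957 and 0.0793 (difference 2.37 ± 1.12, adjusted p = 0.680). The groups did not overlap for 15 of 42 genes, 10 higher and 5 lower in steps 1 to 3 and 9 to 16, against 36.6% of all genes.

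Lower in steps 1 to 3 and 9 to 16 of controls were Psmd10, Psmd5 and Psme4, by size of the difference and not by the test. Psmd10 had levels of 15.6 and 6.64, against 53.3 and 22.8 in steps 4 to 8 (difference -1.71 ± 1.35, adjusted p = 0.808). Psme4 had 60.5 and 57.2, against 105 and 84.0 (difference -0.66 ± 0.50, adjusted p = 0.804), and Psmd5 had a difference of -0.71 ± 0.74 (adjusted p = 0.854).

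Between the regions in KO animals, again no gene was called (0% of 16841), and 5 of 42 had an unadjusted p under 0.05, against 7.62% of all genes. The 5 were Psma2, Psma5, Psmd5, Psmd13 and Psme1. The groups did not overlap for 25 of 42, 24 higher and 1 lower in steps 1 to 3 and 9 to 16, against 39.9% of all genes, and the median difference was 0.77, against 0.20 over all genes. Psma2 had levels of 47.4 and 43.5 in KO tissue of steps 1 to 3 and 9 to 16, against 13.3 and 10.2 in steps 4 to 8 (difference 1.93 ± 0.52, adjusted p = 0.494). Psme4 was the lower one, with 65.1 and 70.6, against 123 and 80.1 (difference -0.54 ± 0.50, adjusted p = 0.806). This comparison and that of KO with control in the region of steps 1 to 3 and 9 to 16 share the same 2 KO libraries.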

How the data were processed

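The authors deposited log2 RPKM values (reads per kilobase of gene and per sequencing depth) for 25965 genes in 14 libraries. The submitters' processing notes name mm10, HISAT2 2.1.0, Trim Galore 0.4.0 and FastQC; which counting tool, annotation and strand setting made the values is not given here. Per the labels, whole testis went through a directional kit (NEBNext Ultra Directional) and captured tissue through SMART-seq2. RPKM had been planned for, and log2 values were found, so RPKM was restored by exponentiation. The length in each value was the whole gene span, and 0 reads had been entered as 0.9. Multiplying by span and depth recovered whole reads: 99.9% of values lay within 0.05 of a whole number. Genes nested in a host gene showed counting over introns and on both strands, since the host held at least as many reads in 887 of 887 same-strand and 1886 of 1886 opposite-strand cases. Replicates differed by more than sampling noise, with a chi-square per gene of at least 10.4.

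Differences came from limma 3.58.1 (R 4.3.3) with an intensity trend, on log2(RPKM + 0.1), two-sided and with Benjamini-Hochberg adjustment over all genes tested; they understate the change of low genes. Whole testis was fitted alone, keeping genes with 0.1 RPKM or more in 3 or more libraries. All captured libraries entered a common fit of 4 groups, keeping genes that reached this in 2 or more. P-values set each difference against the spread between these libraries, which limma estimates with the help of all genes. In captured tissue the 4 groups shared this spread. The code was tested on reads simulated from the real means with 1 common spread for all genes. In whole testis it called 0% of 1.25-fold, 6% of 1.5-fold and 90% of 2-fold changes, with 10 false calls. In steps 4 to 8 it called 0% of 4-fold changes. A gene not called can thus still differ. Transcript lengths are from GENCODE M21.

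Members and lists were chosen with earlier results of these data known. The rule for naming gave 28 members: those called, the 3 largest differences in each direction in each comparison of KO with control and of regions in controls, Psma8 and Psma7, the immune subunits and those they replace, activators and the inhibitor, Psmd10, and the highest and lowest of each role by level. Other members were named after their values were seen. Of the pathway list, genes called or with the largest change were named. Alternatives covered pseudocount, filter, scaling, limma voom on recovered reads, left-out libraries and the replicate number as a block.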

Additional observations from a re-analysis of the deposited data

Results flagged for a closer look

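Psmd10 differed in sign between whole testis and captured tissue of steps 1 to 3 and 9 to 16. Its KO minus control difference was -0.69 ± 0.12 in whole testis (SE, limma adjusted p = 0.0328), where all 3 KO libraries lay below all 3 control libraries. It was 1.57 ± 1.35 in tissue of steps 1 to 3 and 9 to 16, where it did not pass the test (limma adjusted p = 0.990), with both KO libraries (levels of 31.7 and 31.4) above both control libraries (15.6 and 6.64). In tissue of steps 4 to 8 it was -2.72 ± 1.35 (limma adjusted p = 1.00), the sign seen in whole testis, with overlapping groups. The difference between whole testis and captured tissue was not tested, since the tissues went through different library kits.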

How the results depend on the processing

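In whole testis 1 member was called, where 3.65% of all genes were. The number of members called was also 1 with every other pseudocount, filter and scaling tried. Without a filter, however, the gene was Psmb9, with 3 to 18 reads a library, and not Psmd10. The number was 6 with limma voom on recovered reads, 13 without both libraries numbered 1, and 0 to 4 when each library was left out in turn. In the captured comparisons it was 0 under every alternative tried, as it was for all genes as reported, so the lack of calls there says little about the members.

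Replicate numbers were not shown to pair the samples. Same-numbered libraries correlated at 0.0749 to 0.218 over 3 pairs in whole testis and at -0.0478 to 0.0920 over 12 pairs in captured tissue. With 2 libraries a group, the captured pairs numbered 1 and those numbered 2 give the same values, so the 12 are not separate. Different-numbered pairs of whole testis ran from -0.274 to 0.150. The highest was that of the third control library with the second KO library, above the same-numbered pair of that control library (0.0749). With the replicate block 1 member, Psmd10, was called in whole testis (adjusted p = 0.0350) and 0 in each captured comparison, and 404 genes in all were called in whole testis, against 575 without the block.

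With a common sum the median of all genes moved by over 0.1 in both tissues, to -0.059 in whole testis and 0.19 in steps 1 to 3 and 9 to 16. In whole testis these differences near 0 changed sign. With a common sum Psma1 was -0.025, Psma2 -0.082, Psmb1 -0.044, Psmb7 -0.039 and Psmd9 -0.033. With quantile normalization Psma1 was -0.014, Psma2 -0.060, Psmb1 -0.035 and Psmd8 -0.039. Without both libraries numbered 1 Psma5 was 0.0095. With single libraries left out, Psma2 ran over -0.047 to 0.19, Psma5 over -0.25 to 0.015, Psmb7 over -0.011 to 0.18 and Psmc6 over -0.16 to 0.017. In steps 4 to 8 Psmd3 ran over -0.61 to 2.44. In steps 1 to 3 and 9 to 16 Psme1 ran over -1.94 to 0.45 and Psme3 over -1.70 to 0.40. The cause was not tested.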
